A study of Mus musculus with 20 samples.

Results

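Intestinal organoids labelled *Mettl3*-/- were compared with organoids labelled wild type (WT), with 2 libraries on each side, which are 4 of the 20 libraries in the series. The 4 libraries are those whose titles pair KO or WT with "m3-flag", a term that the labels do not explain. Organoids are miniature epithelia grown in gel from intestinal stem cells. Per the labels' protocols, the organoids came from C57BL/6 mice with floxed *Mettl3* alleles (Mettl3fl/fl) that also carried Lgr5-EGFP-IRES-CreERT2 and Villin-CreERT2. The *Lgr5* driver is active in crypt stem cells and the Villin driver throughout the intestinal epithelium, and the CreERT2 recombinase works only once it binds 4-hydroxytamoxifen (4-OHT). The organoids labelled *Mettl3*-/-, called KO below after their label, had 4-OHT for 2 days, and the WT organoids had ethanol, its solvent, for 2 days. Deletion of *Mettl3* and exposure to 4-OHT thus cannot be told apart. The WT label does not say whether these organoids carried the floxed alleles and the Cre drivers. Both groups grew in Matrigel under medium with EGF, Noggin and R-spondin1, and live cells were sorted by flow cytometry before RNA extraction. Another 4 organoid libraries, labelled *Mettl3*-/- with 4-OHT and carrying retroviral *Ascl2*, *Klf9* and *Fosb* (AKF) or the same with *Purb* (AKFP) under puromycin selection, entered the model only for its estimate of spread. Whether the 2 libraries of a group are separate cultures is not in the labels, so every p-value measures only the spread between these libraries, which may be technical.

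METTL3 is the enzyme that, in a complex with METTL14 and WTAP, places N6-methyladenosine (m6A) on messenger RNA in the nucleus, mostly near stop codons and in long internal exons. Reader proteins such as the YTHDF family bind the mark, and methylated transcripts are as a rule shorter lived. In the intestine the epithelium renews continuously from *Lgr5*-positive crypt stem cells, which give absorptive enterocytes and the secretory goblet, Paneth, enteroendocrine and tuft cells.

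Values are FPKM, fragment numbers corrected for transcript length and library size, and changes are differences of group means of log2(FPKM + 1), KO minus WT, given with a standard error (SE). This scale understates the change of genes at low FPKM. The rough depth estimate, read from the commonest product of FPKM and length among genes of 1 exon, was 18200000 to 21700000 fragments per library, in which 11862 to 12046 genes reached 1 FPKM. Across genes, the WT libraries correlated with each other at 0.988 and the KO libraries at 0.989, against 0.958 to 0.963 between the groups. The epithelial genes *Epcam* (414 to 437 FPKM in WT and 381 to 451 in KO) and *Vil1* (131 and 140 in WT, 122 and 127 in KO) were abundant in every library. Of 22 immune markers 21 stayed under 1 FPKM in all 4 libraries and 10, *Ptprc* among them, were at 0, and the list summed to between 1.3 and 2.30 FPKM. Of 21 stromal and endothelial markers 19 stayed under 1 FPKM and 6, including *Col3a1* and *Dcn*, were at 0. That list summed to 7.09 and 6.88 FPKM in WT and 11.3 and 11.4 in KO, mostly from *Vim* and *Lyve1*. One set of features separated the groups in a way no gene list holds: *Gm26917*, a noncoding locus that shares sequence with ribosomal RNA, read 128 and 102 FPKM in WT and 1419 and 1227 in KO. It also read 1234 and 1131 in AKF but only 151 and 133 in AKFP. Features annotated as microRNA genes took 2.69% and 2.39% of the summed FPKM in WT and 6.49% and 6.25% in KO. The part of this difference in the gene results was not tested.

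*Mettl3* itself did not separate the groups at the level of the whole gene. It read 3.23 and 3.56 FPKM in WT and 3.62 and 3.47 in KO, which overlap, with a change of 0.05 ± 0.09 (SE; limma, adjusted p = 0.703). A whole-gene value can include exons outside the deleted part, which the sources used here do not name, and *Mettl3* overlaps *Tox4* on the other strand, so this value does not check the label in either direction.

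Small differences spread over a large share of the transcriptome. Of 12215 genes that reached 1 FPKM in at least 2 of the 4 libraries, 3558 were called by limma at an adjusted p under 0.05 (29.1% of genes tested), 2083 higher in KO (17.1%) and 1475 lower (12.1%). The called genes changed by a median of 0.50 in absolute log2 terms, with quartiles of 0.37 and 0.72. Of them 3164 changed by under 1, 1812 higher and 1352 lower, which is 25.9% of genes tested. Changes of 1 or more were 271 higher and 123 lower. Genes changed by 0.25 to 0.5 were called in 49.9% of cases, and genes under 0.25 in 1.25%. The difference of the group means was 0.22 in the median gene, compared with 0.11 between the WT libraries and 0.10 between the KO libraries. In all 3558 called genes the KO and WT libraries did not overlap, which also held for 68.4% of all genes tested. Scaling every library to an equal sum turned the split round, to 1334 higher and 1960 lower. Leaving out WT1, WT2, KO1 or KO2 left 2003, 1915, 1823 or 1753 calls.

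**Figure D1:**
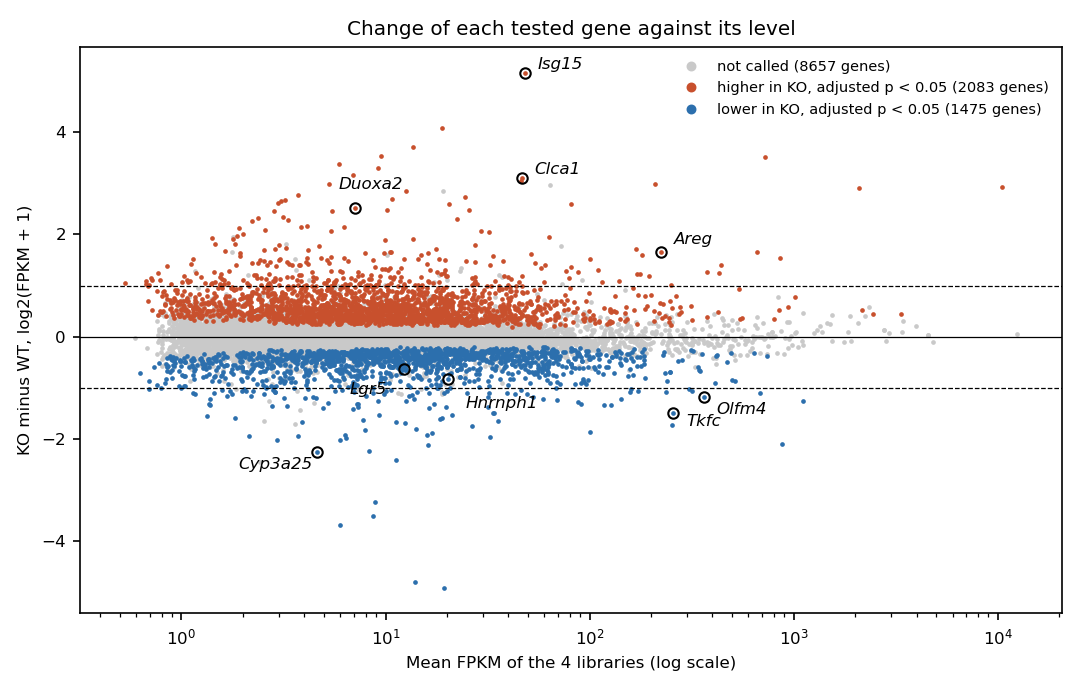
Change of each of the 12215 tested genes (KO minus WT, log2(FPKM + 1), y axis) against its mean FPKM over the 4 libraries (x axis, log scale), coloured by limma call; dashed lines mark changes of 1 in either direction. Most of the 2083 genes called higher and the 1475 called lower lie between the dashed lines, and *Isg15* is the highest point.

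The largest rises were in interferon-stimulated genes, which cells switch on after sensing virus or foreign nucleic acid. *Isg15*, a ubiquitin-like modifier, read 1.54 and 1.71 FPKM in WT and 74.2 and 117 in KO, a change of 5.16 ± 0.21 (limma, adjusted p = 0.000129). Of 45 interferon response genes tested, 43 rose and none fell, with a median change of 1.68 against 0.01 over all genes tested. The group ran from effectors such as *Ifit1bl1* (4.08), *Ifit3* (3.53), *Ifit1* (3.31) and *Oasl2* (3.16) to the transcription factors *Irf7* (2.85) and *Stat2* (1.15). Sensors of foreign RNA and DNA were among them: *Dhx58* rose by 2.06, *Zbp1* by 1.38, and *Ifih1* and *Ddx58* by 1.0 each. Of 25 genes of nucleic acid sensing and interferon induction 11 rose, none fell and 14 were not called (median 0.29). The share called there was 44%, against 29.1% over all genes tested. All 4 interferon-induced GTPases tested rose, such as *Irgm1* from 3.75 and 3.47 FPKM to 14.3 and 18.3 (1.90 ± 0.20). *Tmem173*, which encodes the DNA-sensing adaptor STING, rose from 2.93 and 2.96 FPKM to 7.76 and 7.28 (1.11 ± 0.13). *Adar*, the RNA editing enzyme that keeps the cell's own double-stranded RNA from its sensors, rose from 4.37 and 5.11 to 11.2 and 13.2 (1.20 ± 0.14). *Isg15* also read 74.0 and 97.5 FPKM in AKF and 9.62 and 9.23 in AKFP. AKFP thus lay below KO and AKF, as it did for *Gm26917*. The library with more *Gm26917* had less *Isg15* within WT, KO and AKF, but more within AKFP. The relation was not tested.

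The interferon-stimulated response element is the DNA site that interferon-activated factors bind, and its core was searched for as GAAA, any 2 bases and GAAA again, on both strands of the 250 bases upstream of each gene's start (RefSeq, GRCm38.p6). It lay in 24 of the 189 promoters matched to genes called higher by 1 or more (12.7%), in 4 of 93 for genes called lower by 1 or more (4.30%), and in 3.06% of the 8727 promoters of tested genes and 3.46% of all 27025. The stretches around the core in *Isg15* and *Ifit1*, 70 bases each, are shown because they carry the motif more than once, with overlapping or separate matches in capitals. The *Isg15* stretch is chr4:156200845-156200914 on the minus strand and the *Ifit1* stretch chr19:34640774-34640843 on the plus strand.
Isg15: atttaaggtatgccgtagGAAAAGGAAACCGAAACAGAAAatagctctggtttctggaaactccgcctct
Ifit1: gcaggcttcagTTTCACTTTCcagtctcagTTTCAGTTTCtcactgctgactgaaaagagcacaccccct
A match is a description of the letters and not evidence of binding.

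Antigen presentation by MHC class I, a downstream arm of the same response, changed by less. Of 24 genes tested 14 rose and 1 fell (median 0.49). *H2-D1*, a classical class I heavy chain, rose from 88.3 and 88.0 FPKM to 182 and 196 (1.09 ± 0.07; limma, adjusted p = 0.000344), and the peptide transporter *Tap1* from 3.04 and 1.82 to 5.02 and 8.30 (1.15 ± 0.30; adjusted p = 0.0292). *H2-T3*, a nonclassical class I gene of the intestinal epithelium, fell from 4.09 and 4.41 to 2.00 and 1.72. The class I genes are near-identical copies of one another, so reads may be split between them. The rises numbered 9, 8, 10 and 6 when WT1, WT2, KO1 or KO2 was left out. *Tap1* (WT2 or KO2, adjusted p = 0.14 to 0.141) was not called by limma without the library in brackets.

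Epithelial defence genes rose beside the interferon group, although the REG lectins split. *Duox2* and its maturation factor *Duoxa2* together make the hydrogen peroxide that the epithelium releases at its surface. *Duoxa2* read 1.57 and 1.25 FPKM in WT and 12.4 and 13.1 in KO (2.51 ± 0.11; limma, adjusted p = 0.000143), and *Duox2* read 1.39 and 1.44 in WT and 6.30 and 7.48 in KO (1.70 ± 0.12). The chemokines *Cxcl10* and *Cxcl1* rose from under 0.3 FPKM in both WT libraries to 2.63 and 4.22, and to 3.65 and 3.17. Of 23 defence genes tested 12 rose and 4 fell. *Reg3b* (1.02) and *Reg3g* (0.68), antibacterial lectins, were higher, while their relatives *Reg1* fell from 152 and 165 FPKM to 38.3 and 47.9 and *Reg3a* from 51.4 and 57.5 to 16.7 and 16.8. Without WT1, 7 of these genes rose and 2 fell; the fallers were also 2 without each of the other libraries. Without the library in brackets limma did not call *Reg3b* (any of the 4, adjusted p = 0.0788 to 0.12), *Reg3g* (WT1, WT2 or KO1, adjusted p = 0.067 to 0.101) and *Reg1* (any of the 4, adjusted p = 0.0566 to 0.0852).

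Single genes linked to NF-kB, the factor that inflammatory signals release from its inhibitor, rose as well; no list of NF-kB targets was counted. *Nfkbia*, which encodes that inhibitor and is itself an NF-kB target, rose from 50.0 and 47.2 FPKM to 117 and 102 (1.16 ± 0.09; limma, adjusted p = 0.000452). *Nfkb2*, an NF-kB subunit, rose from 12.6 and 12.8 to 25.8 and 25.5 (0.96 ± 0.07), *Birc3*, an inhibitor of cell death, from 4.35 and 3.79 to 10.4 and 10.6 (1.19 ± 0.13), and *Tnfaip3*, a feedback inhibitor, by 0.88. A strong form of the NF-kB site, the letters in capitals in the *Cxcl1* stretch shown next, searched on both strands, lay upstream of 7 of the 8727 tested genes with a promoter (0.0802%) and of 28 of 27025 overall (0.104%). *Cxcl1* and *Nfkbia* were the 2 holders among the 189 genes called higher by 1 or more. Their stretches are shown with the match in capitals, chr5:90891144-90891213 on the plus strand for *Cxcl1* and chr12:55492648-55492706 on the minus strand for *Nfkbia*, where the match reads on the opposite strand.
Cxcl1: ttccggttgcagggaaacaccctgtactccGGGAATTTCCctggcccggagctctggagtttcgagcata
*Nfkbia*: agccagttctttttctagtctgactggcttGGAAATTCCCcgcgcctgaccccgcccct *Tnfaip3* (WT1 or KO1, adjusted p = 0.12 to 0.137) was no longer called by limma once the library in brackets was left out.

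Genes of the fetal-like, regenerating epithelium formed the other group of large rises. This programme, linked to the co-activator YAP, appears when the epithelium is injured. Of 21 such genes tested 16 rose and 1 fell, with a median of 1.23, and 15 rises remained whichever library was left out. *Ly6a*, the surface protein Sca-1, read 8.81 and 8.25 FPKM in WT and 53.9 and 113 in KO (3.05 ± 0.38; limma, adjusted p = 0.00196). It is also induced by interferon, whose part in these rises was not tested. Other genes of the programme rose too: *Anxa10* from 2.71 and 2.08 to 15.6 and 20.2 (2.47), *Anxa1* from 1.71 and 1.65 to 10.3 and 11.4 (2.15), *S100a6* from 12.9 and 11.1 to 52.4 in both libraries (2.04), and *Clu*, a marker of revival stem cells, by 1.42. The KO pair stood above the WT pair in each. *Trim2* was the faller, from 6.22 and 6.80 to 3.69 and 4.37.

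The EGF ligand *Areg*, also on the fetal-like list, read 109 and 105 FPKM in WT and 318 and 362 in KO (1.66 ± 0.10; limma, adjusted p = 0.000344). Of 17 EGF pathway genes tested 6 rose and 1 fell, or 41.2% called against 29.1% over all genes. The changes beyond *Areg* were small. The ligand *Btc* rose by 0.57 and the receptor *Egfr* by 0.44, the feedback phosphatases *Dusp4* and *Dusp6* by 0.56 and 0.47, and *Errfi1*, an inhibitor of the receptor, by 0.33. The co-receptor *Erbb2* fell from 33.8 and 34.3 FPKM to 28.5 and 27.0 (−0.28 ± 0.07). Leaving out the library in brackets ended the limma calls of *Egfr* (KO2, adjusted p = 0.054), *Dusp6* (WT2 or KO1, adjusted p = 0.0519 to 0.0594), *Errfi1* (WT1, KO1 or KO2, adjusted p = 0.0633 to 0.121) and *Erbb2* (any of the 4, adjusted p = 0.0797 to 0.146).

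Junction and cytoskeleton genes shifted in selected members. The tight-junction protein *Cldn4* rose from 81.4 and 76.3 FPKM to 258 and 262 (1.71 ± 0.07; limma, adjusted p = 0.000138), and *Cldn3* from 376 and 366 to 717 and 702 (0.93 ± 0.07). *Cldn15*, the claudin that lets sodium pass in the small intestine, fell from 191 and 190 to 126 and 120 (−0.62 ± 0.07). Of 31 junction and adhesion genes 9 rose and 1 fell, and the 32.3% called is near the 29.1% over all genes. With libraries scaled to equal sums 5 rose. Leaving out WT1 or KO2 also left 5 rises. Of 33 actin and cytoskeleton genes 15 rose and 2 fell, with the filamin *Flna* (0.83), tubulin *Tubb2a* (0.89) and beta-actin *Actb* (0.35) among the rises. The fallers were *Espn* and *Pls1*, which bundle actin in the brush border. The rises numbered 9, 9, 8 and 8, and the falls 1, 1, 1 and 2, without WT1, WT2, KO1 or KO2. *Vim*, an intermediate filament of stromal cells, rose from 2.20 and 2.14 to 4.16 and 4.61. *Lyve1* of the stromal and endothelial list rose from 3.79 and 3.54 to 5.48 and 4.96 (0.41 ± 0.09). The other 19 markers of that list stayed under 1 FPKM as given above. *Actb* (any of the 4, adjusted p = 0.0566 to 0.106) and *Pls1* (WT1, WT2 or KO1, adjusted p = 0.074 to 0.137) were not called by limma without the library in brackets.

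**Figure D2:**
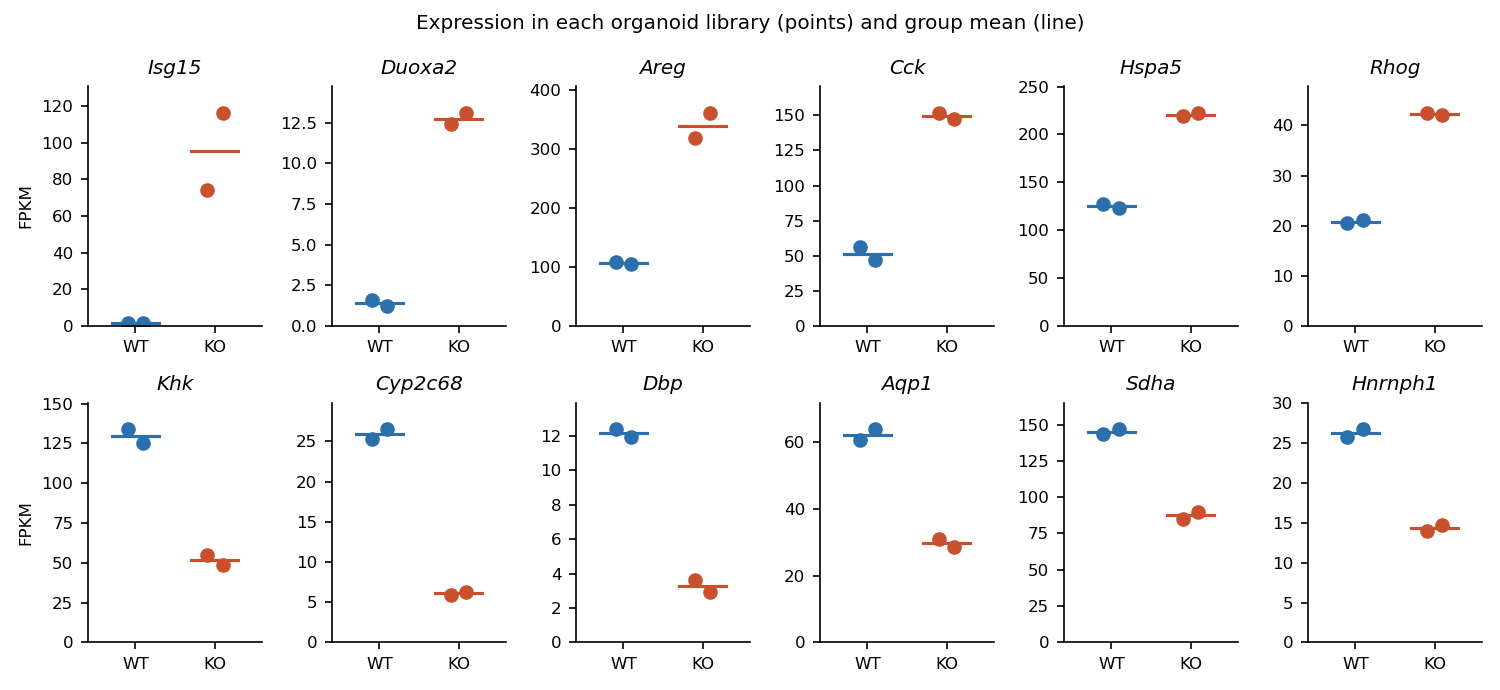
FPKM (y axis, from 0, its own scale in each panel) in the 2 WT and 2 KO organoid libraries for 6 genes that rose (top) and 6 that fell (bottom); points are libraries and lines are group means. The 2 groups do not overlap in any panel. Relative to the scale of its panel, the KO libraries lie farthest apart for *Isg15*, at 74.2 and 117.

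Most tested goblet and enteroendocrine genes were higher in KO. In bulk RNA a change in a marker cannot tell more or fewer cells of a type from more or less of its RNA per cell. Of 23 goblet cell genes tested 17 rose and 1 fell, led by *Clca1*, a secreted mucus protein, which read 9.35 and 8.43 FPKM in WT and 78.9 and 88.9 in KO (3.10 ± 0.09; limma, adjusted p = 2.92e-05). The faller was *Klk1*, from 56.9 and 49.0 to 41.2 and 40.6. *Muc2*, the mucin that builds the mucus gel, rose by 0.89 and the goblet cell folding enzyme *Agr2* by 1.23. Enteroendocrine genes moved without an exception in direction among those called: 17 of 28 rose and none fell (median 0.69), and 15 to 17 rose whichever library was left out. They span hormones, granule proteins and lineage factors. *Cck* rose from 55.9 and 47.2 FPKM to 152 and 147 (1.52 ± 0.12), *Gcg*, which yields GLP-1, from 36.7 and 28.6 to 94.6 and 81.0 (1.41 ± 0.13), and the granule protein *Chgb* from 241 and 201 to 539 and 519 (1.26 ± 0.12). *Fev* (1.07), *Neurod1* (0.96) and *Insm1* (0.86) are transcription factors of the lineage. *Ghrl*, the hormone ghrelin, rose by 0.61. Without the library in brackets limma did not call *Klk1* (WT1, KO1 or KO2, adjusted p = 0.0797 to 0.0918) and *Muc2* (WT1, WT2 or KO2, adjusted p = 0.066 to 0.0737).

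Paneth and tuft markers were less clear. The 28.6% of Paneth cell genes called is near the 29.1% over all genes tested. Of 21 Paneth cell genes 6 rose and none fell (median 0.37); these were *Mmp7* (1.36), *Ang4* (1.25), *Reg3b*, *Reg3g*, *Pla2g2a* and *Itln1*, several of which are also made by other epithelial cells. *Lyz1*, the Paneth lysozyme, read 644 and 597 FPKM in WT and 737 and 660 in KO and was not called (limma, adjusted p = 0.241). Only 2 Paneth genes were called higher without WT2 or without KO1, and 9 without WT1. Only 5 tuft cell genes were tested; *Sh2d6* rose, while *Il17rb* and *Pou2f3*, the factor that defines the lineage, fell, all at 2.4 FPKM or less. *Atoh1*, the factor that commits cells to the secretory fate, rose from 5.74 and 5.57 to 8.91 and 8.86 (0.57 ± 0.07; adjusted p = 0.00201). *Pla2g2a* (WT2 or KO1, adjusted p = 0.0526 to 0.0729), *Itln1* (WT2, KO1 or KO2, adjusted p = 0.0982 to 0.153), *Sh2d6* (any of the 4, adjusted p = 0.0616 to 0.112) and *Il17rb* (any of the 4, adjusted p = 0.0756 to 0.183) were no longer called by limma once the library in brackets was left out. Leaving out the library in brackets ended the limma call of *Pou2f3* (WT1, WT2 or KO2, adjusted p = 0.111 to 0.151).

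Stem cell genes changed unevenly. The shares called were 30.8% of stem cell markers, 28.6% of Wnt targets and 29.4% of Notch and secretory choice genes. Each is near the 29.1% over all genes tested. *Lgr5*, the R-spondin receptor that marks crypt stem cells, fell from 14.5 and 15.7 FPKM to 9.23 and 9.55 (−0.63 ± 0.08; limma, adjusted p = 0.00201), and *Olfm4*, a secreted stem cell marker and Notch target, from 467 and 548 to 217 and 226 (−1.19 ± 0.13). *Smoc2* and *Cdca7* fell by 0.55 and 0.57 on the log2 scale. *Ascl2*, the stem cell transcription factor, read 10.7 and 12 FPKM in WT and 12.4 and 12 in KO and was not called (0.09 ± 0.07; adjusted p = 0.402). In all 26 stem cell markers were tested, of which 2 rose (*Aqp4* and *Phlda1*) and 6 fell, or 4 without WT2, KO1 or KO2. Wnt targets were not lowered as a group: of 21 tested 4 rose and 2 fell. *Sp5*, a direct target, read 5.26 and 4.72 FPKM in WT and 12.3 and 11.7 in KO (1.12 ± 0.08), while the Wnt receptor *Fzd5* fell from 31.6 and 38.9 to 21.7 and 22. Rises numbered 2 without WT1 or KO2. Of 17 Notch and secretory choice genes 2 rose and 3 fell, or 1 without WT2 or KO2: the receptor *Notch1* fell by 0.45 and its target *Nrarp* by 0.59 on the log2 scale, and the ligand *Jag2* rose by 0.63. *Cdca7* (WT2, KO1 or KO2, adjusted p = 0.0549 to 0.0664), *Notch1* (WT2, KO1 or KO2, adjusted p = 0.0655 to 0.138) and *Nrarp* (WT2 or KO2, adjusted p = 0.066 to 0.0671) were not called by limma without the library in brackets.

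BMP and TGF-beta genes gave 6 rises and 1 fall among 21, and the 33.3% called is near the 29.1% over all genes. *Id3*, a direct BMP target, rose from 7.27 and 6.65 FPKM to 17.4 and 16.2 (1.16 ± 0.13; limma, adjusted p = 0.00163), *Smad7*, an inhibitor of both pathways, from 2.70 and 2.89 to 4.62 and 4.48 (0.55 ± 0.09), and *Tgfb1* by 0.61. *Smad3* was the faller. Rises numbered 3 without WT1, WT2 or KO2. Without the library in brackets limma did not call *Smad3* (any of the 4, adjusted p = 0.05 to 0.144).

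Absorptive metabolism fell, fructose handling included. Fructose enters the enterocyte through SLC2A5, is phosphorylated by ketohexokinase (*Khk*), and later passes triokinase (*Tkfc*). *Slc2a5* read 12.3 and 13.6 FPKM in WT and 3.03 and 2.78 in KO (−1.83 ± 0.11; limma, adjusted p = 0.000344). *Khk* fell from 134 and 125 to 55.0 and 48.6 (−1.31 ± 0.14) and *Tkfc* from 362 and 398 to 132 and 136 (−1.5 ± 0.12). The KO libraries were below both WT libraries for each of these genes. Gluconeogenic genes fell with them: *G6pc*, glucose-6-phosphatase, by 1.94, *Fbp1* by 1.38 and *Pck1* by 1.11 on the log2 scale. Of 14 sugar transport and gluconeogenesis genes 13 fell and 1 rose, with a median of −1.21, and 10 or 11 fell whichever library was left out. The riser was *Pck2*, the mitochondrial isoform of the *Pck1* enzyme, from 17.4 and 17.0 to 35.6 and 39.4 (1.08 ± 0.07), which is also a target of the stress factor ATF4. Among 29 enterocyte genes 15 fell and none rose (median −0.70), including the vitamin A binding protein *Rbp2*, from 169 and 167 to 64.4 and 67.9 (−1.33 ± 0.20) and the fatty acid binding proteins *Fabp1* (−1.26) and *Fabp2* (−1.22). The fallers numbered 11, 9, 9 and 12 without WT1, WT2, KO1 or KO2. *Vil1*, a structural protein of the brush border, was not called (−0.12; limma, adjusted p = 0.309), nor was the keratin *Krt20* (0.10; adjusted p = 0.791), while *Espn* and *Pls1* fell as given above. The amino acid transporter *Slc6a19* fell from 8.58 and 11.8 to 1.78 and 1.71 (−2.02 ± 0.15).

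Drug and steroid metabolism fell nearly as a block. Of 32 cytochrome P450, glucuronidation and sulfation genes 26 fell and 2 rose, with a median of −0.77, where 12.1% of all tested genes fell. *Cyp3a25* read 7.99 and 8.66 FPKM in WT and 1.05 and 0.854 in KO (−2.26 ± 0.17; limma, adjusted p = 0.000449), *Cyp2b10* read 12.5 and 16.3 in WT and 2.32 and 2.16 in KO (−2.24 ± 0.18), and *Cyp2c68* read 25.2 and 26.5 in WT and 5.85 and 6.33 in KO (−1.92 ± 0.13). The conjugating enzyme *Ugt2b5* fell from 18.6 and 20.9 to 3.14 and 2.62 (−2.42 ± 0.22). The fallers numbered 13, 15, 13 and 15 without WT1, WT2, KO1 or KO2, and 15 with no filter on low values; the risers were 1, or none without WT1. Members of these families are close copies of each other, and the deepest falls, of *Ugt1a9* (−4.91) and *Ugt1a5* (−4.79), are in genes that share their last exons with the other Ugt1a genes, so that their values are uncertain. *Ugt1a1* of the same locus fell by 0.60 on the log2 scale. Of 30 glutathione transferase and UGT genes, which overlap this list, 19 fell and none rose. Glutathione transferases themselves included *Gstm7*, from 20.4 and 19.1 to 7.85 and 7.89 (−1.23 ± 0.12), and *Gstm4* (−0.96). Without WT1, KO1 or KO2, 9, 9 or 10 of the 30 fell. Leaving out the library in brackets ended the limma calls of *Ugt1a9* (any of the 4, adjusted p = 0.112 to 0.13), *Ugt1a1* (WT1 or KO1, adjusted p = 0.0872 to 0.0956) and *Gstm4* (any of the 4, adjusted p = 0.0754 to 0.0925).

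Retinoid genes fell in a pattern that covered uptake, storage and oxidation of vitamin A. *Aldh1a1*, which makes retinoic acid from retinal, read 48.9 and 55.7 FPKM in WT and 12.8 and 12.6 in KO (−1.96 ± 0.20; limma, adjusted p = 0.00101). *Bco2*, which cleaves carotenoids, fell from 14.4 and 14.3 to 4.47 and 4.17 (−1.53 ± 0.17), *Rdh7*, a retinol dehydrogenase, by 1.38 on the log2 scale, and *Lrat*, which esterifies retinol, by 0.87. Of 18 retinoid and vitamin genes 12 fell and 4 rose, and 7 fell without KO2. The risers numbered 2 whichever library was left out. They included *Cyp26b1*, which degrades retinoic acid, from 0.481 and 0.437 FPKM to 1.5 and 1.61 (0.81 ± 0.10), and *Rdh10* (0.64). The vitamin D receptor *Vdr* and its target *S100g* fell by 0.87 and 1.0. *S100g* (WT1, KO1 or KO2, adjusted p = 0.0627 to 0.119) was not called by limma without the library in brackets.

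Lipid synthesis and oxidation were both lower. Of 31 cholesterol synthesis and uptake genes 17 fell and none rose (median −0.31). The falls were modest and spread along the pathway: *Idi1* (−1.22), *Acat2* (−0.76), *Lss* (−0.71), *Fdps* (−0.54) and *Sqle* (−0.37), with the uptake transporter *Npc1l1* (−0.68) and the regulators *Srebf2* (−0.32) and *Insig1* (−0.57). *Acat2* read 93.7 and 80.2 FPKM in WT and 48.5 and 52.8 in KO. Leaving out WT2 left 11 falls and 1 rise, and any other library 12 or 13 falls. Of 20 fatty acid and triglyceride synthesis genes 8 fell and 1 rose, among them the desaturases *Scd1* (−0.73) and *Scd2* (−0.64), and 3, 3 or 4 fell without WT2, KO1 or KO2. Of 28 fatty acid oxidation and PPAR target genes 13 fell and 2 rose, the latter 1 when any library was left out. *Hadh*, an enzyme of the oxidation spiral, fell from 80.1 and 79.3 to 45.0 and 43.4 (−0.84 ± 0.07; limma, adjusted p = 0.000512). *Vnn1*, a PPAR target that is also induced by oxidative stress, rose from 0.793 and 0.933 to 6.35 and 8.45 (2.16 ± 0.18). Without the library in brackets limma did not call *Idi1* (WT1 or WT2, adjusted p = 0.0581 to 0.0659), *Sqle* (WT1, WT2 or KO1, adjusted p = 0.0512 to 0.0675), *Npc1l1* (WT2, adjusted p = 0.0517) and *Srebf2* (WT2, KO1 or KO2, adjusted p = 0.0523 to 0.086).

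Subunits of the respiratory chain encoded in the nucleus fell by small amounts. Of 74 tested 22 fell and 1 rose, with a median of −0.24, so that 31.1% were called. Of all genes tested 29.1% were called. As shares of all genes tested, 12.1% were called lower and 17.1% higher. All 4 subunits of complex II fell: *Sdha* most, from 143 and 147 FPKM to 85.1 and 89.8 (−0.72 ± 0.08; limma, adjusted p = 0.00121), then *Sdhc* (−0.41), *Sdhb* (−0.38) and *Sdhd* (−0.29). *Uqcrfs1*, the Rieske protein of complex III, was the riser, from 186 and 181 to 252 and 254 (0.46 ± 0.07). Scaling to equal sums gave 36 falls, and leaving out WT1, KO1 or KO2 gave 11, 10 or 11. Of the 13 genes encoded in mitochondrial DNA 3 rose and none fell, or 23.1% called against 29.1% over all genes. With quantile normalization 1 rose and 2 fell, and at equal sums 3 rose and 1 fell. *mt-Atp6* read 489 and 497 in WT and 3755 and 3627 in KO (2.90 ± 0.10), but it overlaps *mt-Atp8* and *mt-Co3* on the same strand, so that reads may be assigned to either, and its value is uncertain. Without KO1 or KO2, 1 mitochondrial gene rose. *Sdhb* (WT1 or KO1, adjusted p = 0.0529 to 0.0594), *Sdhd* (any of the 4, adjusted p = 0.0726 to 0.101) and *mt-Atp8* (KO1 or KO2, adjusted p = 0.0594 to 0.0621) were no longer called by limma once the library in brackets was left out.

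Salt and water transport changed in both directions, with 6 rises and 11 falls among 25 genes. *Aqp1*, a water channel, fell from 60.7 and 64.0 FPKM to 31.1 and 28.7 (−1.04 ± 0.07; limma, adjusted p = 0.000344), and *Slc26a3*, the chloride and bicarbonate exchanger, from 9.12 and 10.5 to 5.38 and 5.23 (−0.77 ± 0.13). The sodium and proton exchanger *Slc9a2* rose from 7.73 and 8.10 to 13.8 and 15.1 (0.79 ± 0.10). Leaving out WT2, KO1 or KO2 left 6, 6 or 7 falls.

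Most called genes of the circadian clock fell, the output genes *Dbp* and *Tef* among them. Transcription of *Dbp* and *Tef* is driven by the CLOCK and BMAL1 complex in the daytime phase of the cycle, while Bmal1 (symbol *Arntl*) and *Nfil3* peak in the opposite phase. *Dbp* read 12.4 and 11.9 FPKM in WT and 3.63 and 2.93 in KO (−1.62 ± 0.11; limma, adjusted p = 0.000344), and *Tef* 11.2 and 10.3 in WT and 3.95 and 3.48 in KO (−1.32 ± 0.13). *Per3* (−0.99), *Per2* (−0.81), *Clock* (−0.67), *Per1* (−0.48), *Cry2* (−0.47) and *Nr1d1* (−0.43) also fell. *Arntl* rose from 1.46 and 1.65 to 2.75 and 2.87 (0.58 ± 0.09), *Nfil3* from 7.11 and 6.80 to 13.8 and 13.9 (0.90 ± 0.10), and *Npas2* by 0.39. *Clock*, whose product acts in a complex with BMAL1, thus moved in the opposite direction to *Arntl*. In all 10 of 16 clock genes fell and 3 rose; 6 fell without WT1. The labels do not give the hour of collection, and a difference in phase between the groups was not tested. Leaving out the library in brackets ended the limma calls of *Per1* (WT1 or KO1, adjusted p = 0.0645 to 0.0649), *Nr1d1* (WT1, WT2 or KO2, adjusted p = 0.0575 to 0.108) and *Npas2* (WT1, KO1 or KO2, adjusted p = 0.0671 to 0.0883).

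**Figure D3:**
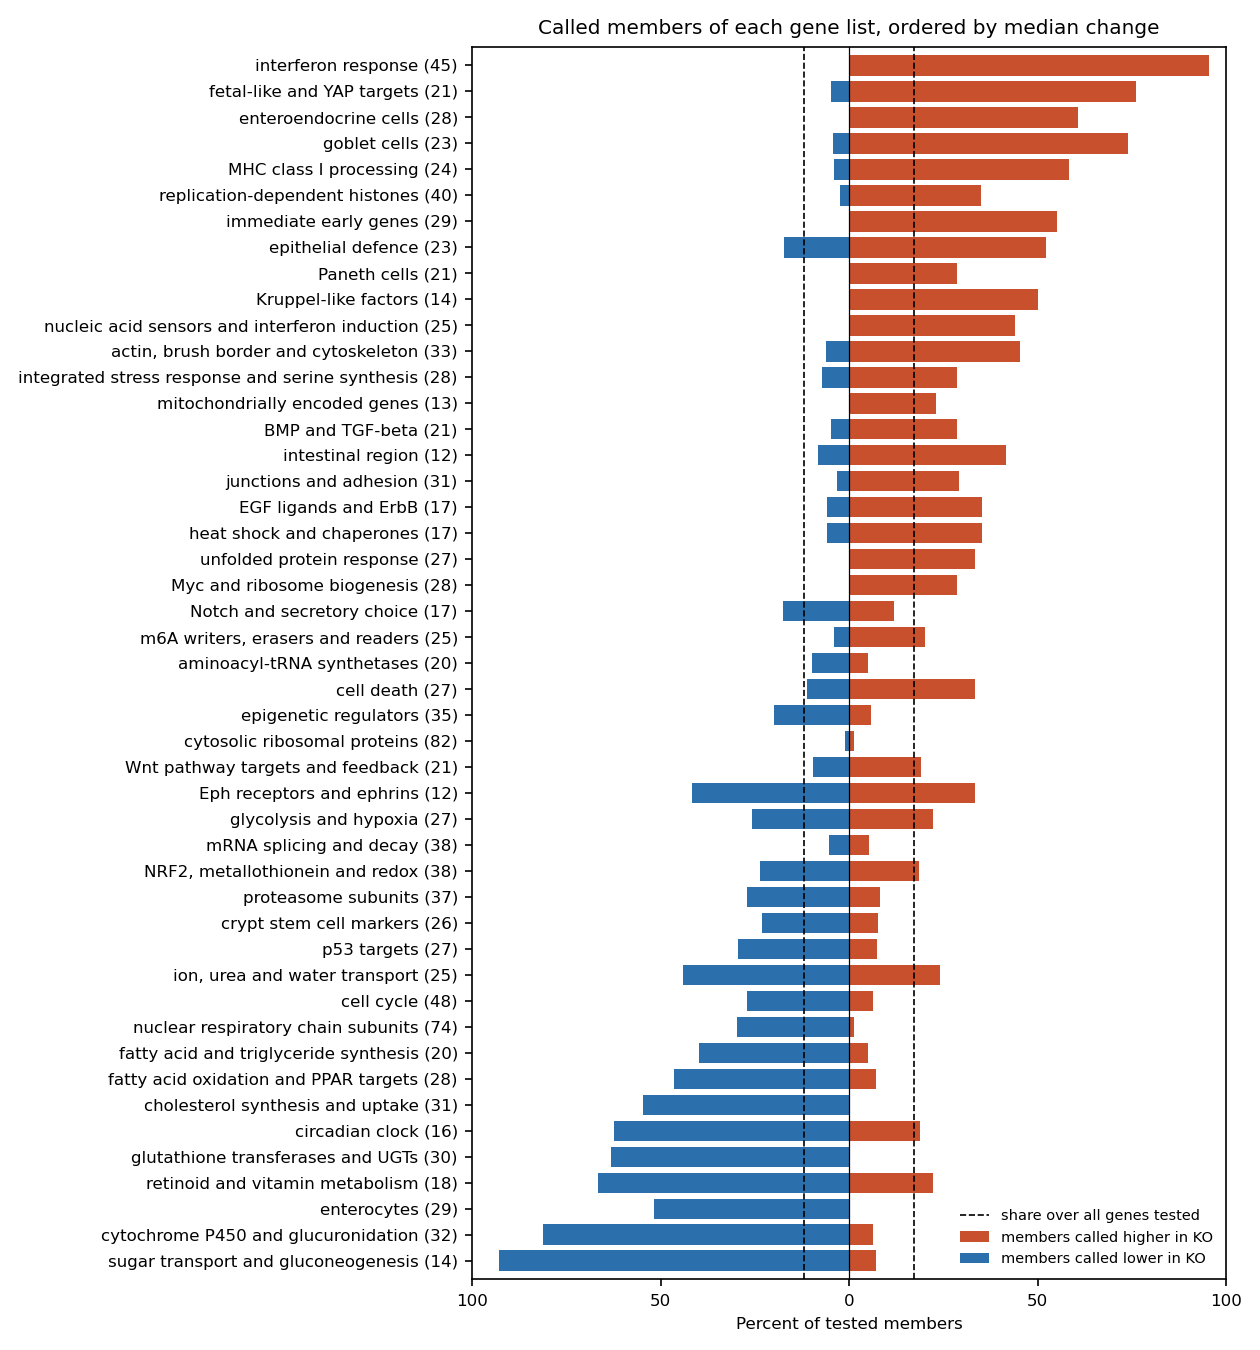
Percent of the tested members of each list that limma called higher (right) or lower (left) in KO, for lists with 10 or more tested members (number in brackets), ordered by median change. Dashed lines give the share over all genes tested, 17.1% higher and 12.1% lower; the interferon and the fetal-like lists stand at the top, and sugar transport and cytochrome P450 at the bottom.

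Some cell cycle genes fell by modest amounts, while the proliferation marker *Mki67* was not called; it read 33.2 and 38.7 FPKM in WT and 35.8 and 41.2 in KO (0.10 ± 0.15; limma, adjusted p = 0.662). Of 48 cell cycle genes 13 fell and 3 rose (median −0.19), or 33.3% called against 29.1% over all genes. *Mcm6*, a subunit of the replicative helicase, fell from 37.3 and 38 to 26.5 and 26.4 (−0.49 ± 0.07), and *Pclaf*, which binds the replication clamp, from 24.4 and 24.3 to 11.8 and 11.6 (−1.0 ± 0.07). *Pcna*, the clamp itself, fell by 0.40 and *Cdc25c*, a mitotic phosphatase, by 0.67. *Ccne1*, the cyclin of S phase entry, rose from 3.86 and 4.72 to 6.51 and 7.08. Falls numbered 5, 4, 3 and 2 without WT1, WT2, KO1 or KO2. Replication-dependent histones, whose transcripts lack a poly(A) tail, went the other way, with 14 rises and 1 fall among 40, at low values. Their share called was 37.5%, against 29.1% over all genes. *Hist1h4n* read 2.97 and 1.6 in WT and 8.32 and 7.87 in KO (1.5 ± 0.22). It read 5.62 and 7.10 in AKF and 2.30 and 1.51 in AKFP. *Gm26917* was likewise higher in KO and AKF than in WT and AKFP, and the relation was not tested. Histone genes are near-identical copies, and 9, 6, 6 and 10 rose without WT1, WT2, KO1 or KO2. *Pcna* (WT1, KO1 or KO2, adjusted p = 0.0549 to 0.0693) and *Ccne1* (WT1 or KO2, adjusted p = 0.0525 to 0.0627) were not called by limma without the library in brackets.

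Targets of p53 did not rise as a group. *Cdkn1a*, the p21 inhibitor, read 62.8 and 61.9 FPKM in WT and 57.1 and 56.7 in KO and was not called (−0.13 ± 0.11; limma, adjusted p = 0.429). Of 27 tested 8 fell and 2 rose, or 37.0% called against 29.1% over all genes. *Ephx1*, which also belongs to drug metabolism, fell from 127 and 123 to 54.3 and 48.3 (−1.27 ± 0.10), and *Zmat3* from 5.74 and 6.36 to 3.38 and 3.98 (−0.59 ± 0.10). *Gdf15* and *Plk2*, which other stresses induce as well, rose by 0.58 and 0.56. Without WT1, WT2, KO1 or KO2, 4, 3, 3 and 3 fell.

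Cell death genes included all 3 core members of necroptosis, the lytic death that ZBP1 can start. *Ripk3* rose from 34.1 and 32.4 FPKM to 64.2 and 58.3 (0.86 ± 0.07; limma, adjusted p = 0.000579), its effector *Mlkl* from 2.15 and 1.76 to 3.39 and 4.51 (0.74 ± 0.13), and *Ripk1* from 3.93 and 4.27 to 5.74 and 6.14 (0.44 ± 0.09). *Casp8*, which restrains them, rose by 0.55. The inflammasome genes *Nlrp6* and *Casp1* fell by 0.56 and 0.47 on the log2 scale. Of 27 cell death genes 9 rose and 3 fell, or 44.4% called against 29.1% over all genes. The median change was −0.03, with 13 of the 27 above 0. With equal sums 5 rose and 6 fell, so the direction of the list depends on the scaling, and without WT2 or KO2 6 and 4 rose. Without the library in brackets limma did not call *Ripk1* (WT1 or KO2, adjusted p = 0.067 to 0.074) and *Casp1* (WT1 or KO2, adjusted p = 0.0873 to 0.0946).

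Some genes of the stress pathways rose. The shares called were 35.7% for the integrated stress response with serine synthesis and 33.3% for the unfolded protein response. They were 41.2% for heat shock genes and 29.1% over all genes tested. *Ppp1r15a*, which ends the integrated stress response by restoring eIF2 activity, rose from 21.3 and 21.9 FPKM to 47.3 and 46.4 (1.08 ± 0.06; limma, adjusted p = 0.000344), and *Chac1*, an ATF4 target, from 14.1 and 15.5 to 24.0 and 29.9 (0.82 ± 0.11). Of 28 genes of that response and of serine synthesis 8 rose and 2 fell, with 5 rises at equal sums or without KO2, and no fall without WT2, KO1 or KO2. In the unfolded protein response *Hspa5*, the main chaperone of the endoplasmic reticulum, rose from 128 and 123 to 219 and 223 (0.81 ± 0.07), *Eif2ak3*, the stress kinase PERK, by 0.62, and the disulfide isomerase *Pdia4* by 0.57. There 9 of 27 rose and none fell, against 4 with equal sums and 4 without WT1, KO1 or KO2; without WT2 6 rose. The inducible heat shock genes *Hspa1a* and *Hspa1b*, near-identical copies, rose from 2.35 and 2.4 to 8.92 and 7.46, and from 5.33 and 5.79 to 16.1 and 15.0. Of 17 heat shock genes 6 rose and 1 fell, with 3 rises at equal sums and 3 without KO1 or KO2, and the fall was called only with all 4 libraries or without KO1.

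Immediate early genes, which respond within minutes to growth factors or to dissociation of cells, gave 16 rises and no fall among 29 (median 0.46). *Junb* rose from 138 and 133 FPKM to 248 and 228 (0.81 ± 0.07; limma, adjusted p = 0.000765), *Klf6* from 38.3 and 43.2 to 69.1 and 72.3 (0.78 ± 0.10), and *Fosl1* from 2.41 and 2.24 to 4.10 and 4.52 (0.68 ± 0.10). *Jun* (0.50), *Egr1* (0.46) and *Atf3* (0.62) were in the same range. *Fosb* read 31.8 and 33.2 in WT and 38.2 and 25.4 in KO and was not called (−0.06 ± 0.18, limma, adjusted p = 0.838). The lowest change in the list was −0.74, which was not called either. *Myc*, another early gene, read 37.4 and 36.9 in WT and 47.4 and 45.3 in KO and was not called (0.31 ± 0.13; adjusted p = 0.12). Cells were dissociated and sorted before RNA extraction, and the time this took is not in the labels. Leaving out WT1 or KO1 left 11 rises. *Jun* (WT1 or KO1, adjusted p = 0.0731 to 0.0847) and *Egr1* (WT1 or KO1, adjusted p = 0.0617 to 0.0711) were no longer called by limma once the library in brackets was left out.

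Of 28 *Myc* and ribosome biogenesis genes 8 rose and none fell, and the 28.6% called is near the 29.1% over all genes. *Rrs1*, an assembly factor of the large subunit, rose from 24.7 and 25.9 FPKM to 47.6 and 50.6 (0.93 ± 0.10; limma, adjusted p = 0.00135), *Nop2*, a nucleolar RNA methyltransferase, from 27.2 and 28.2 to 49.9 and 50.3 (0.83 ± 0.09), and nucleolin (*Ncl*) by 0.69. The rises numbered 4, 4, 4 and 3 without WT1, WT2, KO1 or KO2, and 5 at equal sums. Of 82 cytosolic ribosomal protein genes 1 rose and 1 fell, 2.44% against 29.1% of all genes tested, with a median of −0.06. At equal sums 14 of them fell and none rose.

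Of 25 tested genes of the m6A machinery 5 rose and 1 fell, and the 24.0% called is near the 29.1% over all genes. *Ythdf2*, the reader that leads methylated transcripts to decay, rose from 11.5 and 13.4 FPKM to 21.9 and 22.4 (0.79 ± 0.09; limma, adjusted p = 0.00159), *Ythdf1* from 20.7 and 21.0 to 31.1 and 33.6 (0.61 ± 0.08), and the nuclear reader *Ythdc1* from 3.77 and 4.19 to 5.45 and 5.67 (0.40 ± 0.10). In the writer complex, the adaptor *Rbm15* rose from 5.27 and 6.12 to 11.2 and 12 (0.91 ± 0.13) and *Wtap* by 0.31, while *Mettl14*, the partner of METTL3, read 5.09 and 5.32 in WT and 4.63 and 4.91 in KO (−0.10 ± 0.08; adjusted p = 0.36). *Igf2bp3*, a reader that stabilises its targets, fell from 2.38 and 1.96 to 1.03 and 1.31. With equal sums 3 rose, and 3 also rose without WT1, WT2, KO1 or KO2. Leaving out the library in brackets ended the limma calls of *Ythdc1* (any of the 4, adjusted p = 0.0571 to 0.113), *Wtap* (any of the 4, adjusted p = 0.051 to 0.171) and *Igf2bp3* (WT1 or KO1, adjusted p = 0.0892 to 0.0905).

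RNA processing factors were mostly not called: of 38 splicing and decay genes 2 rose and 2 fell, or 10.5% against 29.1% over all genes. The exceptions were the cyclins *Ccnl2* (0.58) and *Ccnl1* (0.44), and the splicing factors *Srsf10* (−0.32) and *Hnrnph1*. *Hnrnph1* read 25.7 and 26.8 FPKM in WT and 14.0 and 14.7 in KO (−0.83 ± 0.07; limma, adjusted p = 0.000613). *Ccnl2* (WT1 or KO2, adjusted p = 0.0505 to 0.0532), *Ccnl1* (any of the 4, adjusted p = 0.0956 to 0.156) and *Srsf10* (any of the 4, adjusted p = 0.0617 to 0.132) were not called by limma without the library in brackets.

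The modest changes with the smallest p-values came from many pathways. Among the rises, *Rhog*, a small GTPase of cell spreading, read 20.5 and 21.1 FPKM in WT and 42.6 and 42.1 in KO (0.99 ± 0.07; limma, adjusted p = 0.000344). *Arf6*, a GTPase of endocytic recycling, read 108 and 113 in WT and 213 and 216 in KO (0.95 ± 0.06), and *Txnl4a*, a component of the spliceosome, read 9.60 and 9.97 in WT and 20.3 and 20.2 in KO (0.98 ± 0.06). *Mocs3* (0.90), which activates sulfur for molybdenum cofactor and transfer RNA, *Emc6* (0.88), a subunit of the membrane protein insertase, *Qsox1* (0.88), a disulfide-forming enzyme, *Rnf113a2* (0.93) and *Nfkb2* complete the 8 rises. Among the falls, *Rbmx*, an RNA-binding protein of the X chromosome, read 9.77 and 9.78 FPKM in WT and 4.54 and 4.74 in KO (−0.93 ± 0.07; adjusted p = 0.000489). *Tmed2*, a cargo receptor of the secretory pathway, read 124 and 127 in WT and 63.7 and 67.7 in KO (−0.92 ± 0.06), and *Ptpa*, an activator of the phosphatase PP2A, 24.3 and 24.9 in WT and 13.4 and 12.8 in KO (−0.86 ± 0.08). *Hsd17b12* (−0.91), which elongates fatty acids, *Slc25a15* (−0.87), the mitochondrial ornithine carrier, and *Pclaf*, *Hadh* and *Hnrnph1* from above complete the 8 falls. These 16 genes were chosen by their p-values, so that close replicates and separate groups are part of the choice.

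The share of genes called differed with the structure of genes. Of protein-coding genes with 1 exon 26.2% were called higher and 10.5% lower, with 2 exons 29.1% and 6.93%, with 3 to 5 exons 24.6% and 9.73%, with 6 to 10 exons 17.4% and 14.9%, and with 11 or more 12.2% and 13.9%. Of the 8 modest rises just named, *Rnf113a2*, *Qsox1* and *Mocs3* are annotated with 1 exon in their longest transcript and *Arf6* and *Emc6* with 2. *Rhog* has 3, *Txnl4a* 4 and *Nfkb2* 22. Of the 8 modest falls *Pclaf* has 2, *Hadh* 3, *Tmed2* 4, *Slc25a15* 6, *Rbmx* 8, *Ptpa* 9, and *Hsd17b12* and *Hnrnph1* 11 each. The longest annotated transcript need not be the one expressed. With tested genes split into 4 equal groups by GC content, the share called higher ran from 10.5% in the lowest group to 25.3% in the highest. The share that fell ran from 13.7% to 9.27%. Split likewise by density of GGACT, the core of the sequence that m6A writers favour, the share called higher ran from 13.4% to 22.1%. Across genes, Spearman's rho with the change was −0.11 for number of exons, 0.17 for GC content, 0.08 for GGACT per kilobase and −0.07 for transcript length. Genes are not independent replicates, and these are descriptions. The difference between the 2 WT libraries correlated with transcript length at 0.40 and that between the 2 KO libraries at 0.29, and with number of exons at 0.27 and 0.19, in each case more strongly than the group difference did. In tissue rho of the change with number of exons was −0.28 in the high gate and 0.03 in the low gate. Taking a length trend out left rho at −0.06 for exons and 0.15 for GC.

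**Figure D4:**
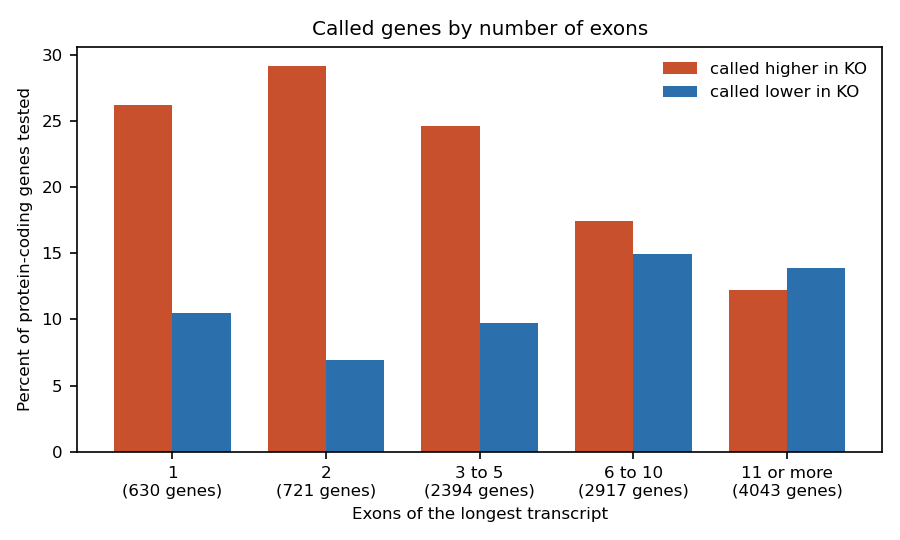
Percent of tested protein-coding genes that limma called higher or lower in KO (y axis, from 0), by number of exons in the longest annotated transcript (x axis, number of genes in brackets). The share called higher is largest at 2 exons, 29.1%, and smallest at 11 or more, 12.2%.

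Sorted crypt cells from tissue, which share no library with the organoids, give a second view of the same genes. Their KO cells, labelled *Mettl3*-/- at day 4 with tamoxifen, were set beside WT cells in the *Lgr5*-high and the *Lgr5*-low gates, 2 libraries each. In tissue limma called 136 of 12899 genes (1.05%) in the high gate and 61 (0.473%) in the low gate, so that most organoid calls have no tissue call beside them. The tables were fitted separately and the difference between them was not tested. Among 3440 called organoid genes also tested in tissue, 41.5% lay on the same side in both gates with tissue libraries that did not overlap, and 3.55% on the other side. Among 8380 genes not called in organoids these shares were 13.8% and 5.08%. Genes called higher had the same sign in 77.7% of cases in the high gate and 84.7% in the low gate, and genes called lower in 74.9% and 78.2%. Over all 11820 genes tested in both, the sign was shared by 64.0% and 67.9%.

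The groups that moved in organoids did not all move the same way in tissue. Median changes of the enteroendocrine list were 0.69 in organoids and 1.73 and 1.11 in the high and low gates, those of the goblet list 0.65, 1.13 and 0.96, and those of the interferon list 1.68, 0.75 and 0.97. *Isg15* rose in both gates, by 3.93 ± 0.50 and 3.32 ± 0.50 (limma, adjusted p = 0.0164 and 0.0392). Sugar transport, at −1.21 in organoids, was at −0.14 and −0.22 in tissue, and cytochrome P450, at −0.77, was at −0.09 and −0.14. The enterocyte list was at −0.70 in organoids and at 0.50 and 0.29 in tissue. *Rbp2* was at 1.09 and −0.21 there and *Slc6a19* at 1.31 and 0.89. *Hadh* (−0.74 and −0.83), *Aqp1* (−1.11 and −0.96) and *Bco2* (−0.96 and −1.31) were below 0 in both gates as in organoids. The immediate early list, at 0.46 in organoids, was at −0.90 and −0.74 in tissue, and the histone list, at 0.48, at −0.42 and −0.72. Targets of p53, at −0.18 in organoids, were at 0.48 and 0.67, with *Cdkn1a* at 1.48 and 1.25. Among the modest rises *Rhog* (0.89 and 0.47), *Arf6* (0.47 and 0.92), *Mocs3* (0.86 and 0.85) and *Qsox1* (0.89 and 1.10) were above 0 in both gates. Among the modest falls *Hnrnph1* (−0.92 and −0.56), *Rbmx* (−0.25 and −0.69) and *Ptpa* (−0.31 and −0.77) were below 0 in both, and *Tmed2* was at 0.17 and −0.50.

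**Figure D5:**
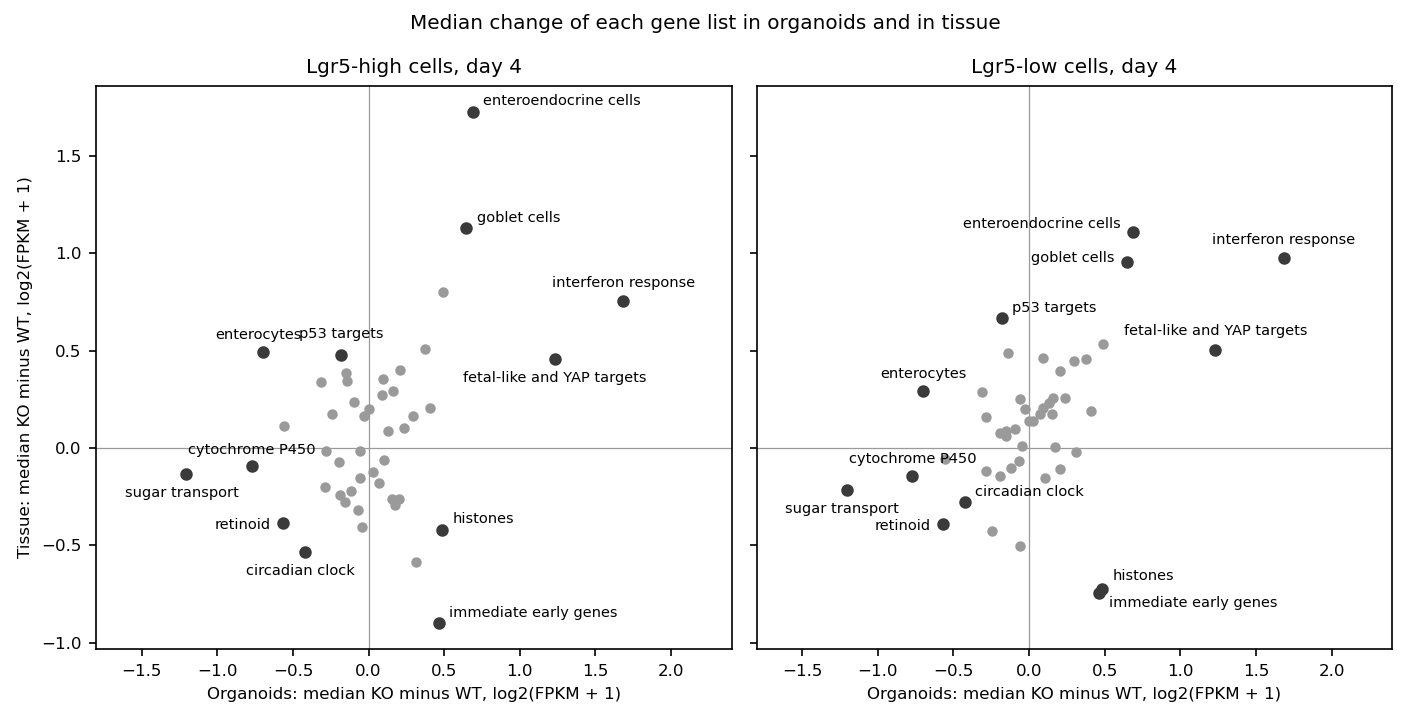
Median KO minus WT change of each list of 10 or more tested members, in organoids (x axis) and in tissue cells at day 4 (y axis; *Lgr5*-high left, *Lgr5*-low right), on the log2(FPKM + 1) scale. Enteroendocrine, goblet, interferon and fetal-like lists lie above 0 on both axes, while the immediate early and histone lists lie above 0 in organoids and below 0 in tissue, and the enterocyte and p53 lists the reverse.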

How the data were processed

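The authors deposited 1 organoid table and 1 table per tissue library. The values the authors deposited for tissue are FPKM, scaled to transcript length and library size, per the file headers. The organoid header names none, and its values were taken as FPKM. HISAT2 2.1.0, StringTie 1.3.3b and the build mm10 are listed per the submitters' processing notes, with no role given; the annotation, filters and strandedness are not given in the sources used here. FPKM keeps no counts, so depth is only a rough estimate and no counting interval is given.

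Genes at 1 FPKM or more in at least 2 of the 4 KO and WT libraries were tested on log2(FPKM + 1) with limma 3.58.1 in R 4.3.3 (1 mean per group over all 8 organoid libraries, eBayes with a trend, two-sided, Benjamini-Hochberg adjustment over all 12215 genes, called under 0.05). The 10 tissue libraries of groups with replicates were fitted the same way and separately. An exact permutation of 2 against 2 libraries cannot go below 0.333, so single-gene permutation tests were not used. The fit was tested on simulated data. A symbol was found for 54723 of the 54838 genes listed. Gene properties were taken from the GENCODE annotation, promoters from RefSeq (GRCm38.p6), and plots were drawn with matplotlib 3.10.9.

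The genes named are the 12 largest rises and 12 largest falls with a group mean of 5 FPKM or more and groups that do not overlap, the 8 smallest p-values per direction among called genes changed by under 1, up to 3 called members per direction of each of 56 lists, and a short fixed set with *Mettl3* and the markers. These came to 240, and 69 further genes were named after their values were seen. Members and lists were chosen with earlier results of these data known. The 16 alternatives covered the pseudocount, the filter, scaling, length, the fit, a replicate block and each library left out. A few of these genes are not reported here, though counts over lists include them.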

Additional observations from a re-analysis of the deposited data

Results flagged for a closer look

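For 31 of the genes named, both KO organoid libraries lay on one side of both WT libraries and both KO tissue libraries of each gate lay on the other side of their WT libraries. Over the 3440 genes called in organoids and tested in tissue 3.55% had this pattern, as did 5.08% of the 8380 not called, and many of the genes named were chosen with their values known. The difference between organoids and tissue was not tested, and the tissue tables were fitted separately. Values are changes of log2(FPKM + 1), KO minus WT, first in organoids and then in the *Lgr5*-high and *Lgr5*-low gates at day 4.

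Immediate early and feedback genes were the most frequent kind. *Nfkbia* was at 1.16 in organoids and at −0.91 and −1.14 in tissue, *Junb* at 0.81 against −0.83 and −0.83, *Klf6* at 0.78 against −1.13 and −0.20, and *Fosl1* at 0.68 against −0.90 and −1.14. *Atf3* was at 0.62 against −1.50 and −1.48, *Jun* at 0.50 against −1.57 and −1.23, and *Egr1* at 0.46 against −1.30 and −0.80. *Klf9*, a factor that the AKF libraries carry as a transgene, was at 0.40 against −1.52 and −0.23. The stress genes *Ppp1r15a* (1.08 against −0.76 and −0.69) and *Dnajb1*, a heat shock co-chaperone (0.50 against −0.69 and −0.69), had the same pattern, as did the cyclin *Ccnl1* (0.44 against −0.82 and −0.74). So did the BMP and TGF-beta genes *Id3* (1.16 against −1.07 and −0.82) and *Smad7* (0.55 against −0.70 and −0.43).

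The histone genes *Hist1h4n* (1.5 against −0.70 and −1.30), *Hist1h3e* (1.45 against −0.39 and −0.73) and *Hist1h4m* (1.40 against −0.82 and −1.59) were higher in KO organoids and lower in KO tissue. *Cyp2e1*, a cytochrome P450, was at 1.05 against −2.01 and −0.94, the clock gene *Arntl* at 0.58 against −0.73 and −0.65, and *mt-Cytb* at 0.45 against −0.30 and −0.11.

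The remaining genes were lower in KO organoids and higher in KO tissue. Among p53 targets *Zmat3* was at −0.59 against 0.95 and 1.19, *Eda2r* at −0.55 against 0.78 and 1.10, *Sesn2* at −0.35 against 0.44 and 0.67, and *Ephx1* at −1.27 against 0.73 and 1.43. The glutathione transferase *Gstm1* was at −0.91 against 0.64 and 1.18. Sterol synthesis gave *Fdps* (−0.54 against 0.78 and 0.37) and *Sqle* (−0.37 against 0.80 and 0.70). *S100g*, a calcium-binding protein, was at −1.0 against 2.00 and 1.32, and the clock gene *Cry2* at −0.47 against 0.32 and 0.26. *Klk1* was at −0.36 against 0.98 and 0.51, *Pou2f3* at −0.58 against 0.91 and 0.52, and *Espn* at −0.50 against 0.81 and 0.51.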

How the results depend on the processing

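Over the 16 alternatives the count of called genes ran from 1753 to 4018, against 3558. Scaling to equal sums gave 1334 genes higher and 1960 lower, so 40.5% of calls were higher against 58.5%; median-of-ratios scaling gave 52.0% and quantile normalization 49.1%. Leaving out 1 library gave 1753 to 2003 calls, 1097 to 1260 higher and 648 to 766 lower, with 1 side held by a lone library that is assumed to vary like the other groups. Of the 309 genes named, 66 to 75 lost their call in each of these fits. A block on the replicate number gave 3665 calls, 3364 of them shared with the 3558; same-numbered WT and KO libraries deviated together at only 0.065, so the numbers are not taken as pairs. Genes that were not called changed sign in some fits: *Mettl3* to −0.032 with equal sums and −0.018 with quantile normalization, *Ascl2* to −0.0070 and *Mki67* to −0.0062 with equal sums, and *Epcam* to 0.053 with quantile normalization. With 1 library left out *Mettl3* ran from −0.0037 to 0.105, *Mki67* from −0.010 to 0.203, *Fosb* from −0.343 to 0.226 and *Epcam* from −0.161 to 0.085. The causes were not tested. With no filter on low values 2925 of 25757 genes were called, and 45 of the genes named lost their call, with p-values adjusted over more genes.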

Other observations

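Several groups that the comparison above does not describe also held called genes. Eph receptors and ephrins, contact signals that order cells along the crypt, split: of 12 tested 4 rose and 5 fell. *Epha2* read 23 and 24 FPKM in WT and 46.3 and 49.8 in KO (1.0 ± 0.08; limma, adjusted p = 0.000506), while the ligand *Efna3* fell from 18.5 and 15.9 to 8.25 and 8.61 (−0.95 ± 0.11). Leaving out any 1 library left 2 rises and 2 or 3 falls. Of 14 Krüppel-like factors 7 rose and none fell, or 5 to 6 rises with 1 library left out; *Klf4*, a factor of differentiated and goblet cells, rose from 27.0 and 23.8 to 38.4 and 37.0. Of 8 keratins 3 rose, among them *Krt23* (0.65) and *Krt7* (0.50), and none fell. The shares called were 75% of Eph receptors and ephrins, 50% of Krüppel-like factors and 37.5% of keratins. Over all genes tested 29.1% were called.

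Redox genes changed in both directions. Of 38 genes of the NRF2, metallothionein and redox list 7 rose and 9 fell, or 4 and 14 at equal sums and 3 to 4 rises with 1 library left out. *Akr1b8* and *Cbr3*, carbonyl-reducing enzymes, each rose by 0.89, while *Akr1c19* fell from 27.5 and 29.5 FPKM to 8.75 and 8.50 (−1.61 ± 0.13; limma, adjusted p = 0.000522) and catalase (*Cat*) from 87.4 and 97.1 to 44.7 and 45.7 (−1.01 ± 0.09). Of 27 glycolysis and hypoxia genes 6 rose and 7 fell, or 5 and 11 at equal sums, and 0 to 3 fell with 1 library left out. The glucose transporter *Slc2a1* rose from 46.2 and 45.3 to 67.8 and 69.9 (0.58 ± 0.06) and the peptide *Adm* by 0.71. Of 37 proteasome subunits 3 rose and 10 fell, with 15 falls at equal sums and 1 to 4 with 1 library left out. *Psmd7* was a riser, from 51.3 and 47.0 to 78.6 and 81.6 (0.70 ± 0.07). Among these subunits 35.1% were called, among the redox genes 42.1% and among the glycolysis and hypoxia genes 48.1%. The share over all genes tested was 29.1%.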
